A study of Homo sapiens with 18 samples.

Results

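The 39 genes described here run glucose through glycolysis or answer to low oxygen: 4 glucose and lactate transporters, 16 glycolytic enzymes, 4 regulators of flux, 2 alpha subunits of the hypoxia-inducible factors (HIF), 2 oxygen sensors and 11 other HIF targets. They were picked by gene symbol from the 61544 genes in each of the 2 deposited count tables, and 1 row matched every symbol in each table. RNA was sequenced from BJ cells, an established line of human skin fibroblasts, in which PURPL, a long noncoding RNA, was knocked down by CRISPR interference or overexpressed. The knockdown table holds sgRNA-PURPL#1, sgRNA-PURPL#2 and a control guide, sgCtrl. The overexpression table holds PURPL#1-OE, PURPL#2-OE and their own control, Ctrl. Each of these 6 groups has 3 libraries, 18 in all. Nothing in the labels ties a replicate to a culture of its own, or says if PURPL#1-OE and PURPL#2-OE are constructs, lines or clones, so p-values reflect the spread among libraries alone, which may be technical. No label gives an oxygen level for the cells.

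Glycolysis splits glucose into pyruvate in the cytosol, and lactate dehydrogenase can turn that pyruvate into lactate instead of letting it enter mitochondria. HIF is a transcription factor built from an oxygen-regulated alpha subunit (HIF1A or EPAS1) and a constant beta subunit. With oxygen, prolyl hydroxylases of the EGLN family mark the alpha subunit for destruction through VHL. Without it, HIF binds DNA at sites with the core RCGTG and raises glucose transporters, most glycolytic enzymes, pyruvate dehydrogenase kinases and genes of pH control, mitophagy, collagen modification and vessel growth. Much of HIF1A's regulation is of its protein, which transcript counts do not show.

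PURPL itself matched its labels. It fell to 19.5% of sgCtrl with sgRNA-PURPL#1 and 24.1% with sgRNA-PURPL#2, and it rose 2.69-fold in PURPL#1-OE and 1.90-fold in PURPL#2-OE relative to Ctrl. Knockdown libraries held 11444513 to 12896040 counts and overexpression libraries 18858976 to 27985649. All 10 fibroblast markers, such as COL1A1 and VIM, were above 1 CPM (the count scaled to a library of fixed size) on average in each of the 6 groups. Their summed level was 16500 to 16600 CPM with sgRNA-PURPL#1 and 15970 to 16580 CPM with sgRNA-PURPL#2, against 15830 to 17070 CPM in sgCtrl. It was higher in the overexpression groups, at 28530 to 29740 CPM in PURPL#1-OE and 30830 to 32060 CPM in PURPL#2-OE against 23490 to 24000 CPM in Ctrl, and its part in the overexpression results below was not tested. Keratinocyte markers summed to at most 14.1 CPM in any library, with KRT1 at 0 throughout. In such bulk libraries, fewer cells of a kind and less RNA per cell cannot be told apart.

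Not all of the genes could be measured. ALDOA (aldolase A, one of the most abundant glycolytic enzymes in most cells) had 10 counts over the 9 knockdown libraries and 9 over the overexpression libraries, and EGLN1 (the main HIF prolyl hydroxylase) had 1 and 6. A further gene annotated on the same strand covers 99.3% of the span of ALDOA and 99.9% of that of EGLN1. LDHB, the other lactate dehydrogenase subunit, had 2, 0 and 0 counts with sgRNA-PURPL#1 and 4, 6 and 3 with sgRNA-PURPL#2, against 0, 1 and 4 in sgCtrl. It had 2, 0 and 1 counts in PURPL#1-OE and 0, 0 and 4 in PURPL#2-OE, against 3, 1 and 1 in Ctrl, and 18.3% of its span is shared in this way. How reads in shared stretches were counted is not given, so it cannot be told if these 3 genes' low counts reflect their expression. CA9 (carbonic anhydrase 9, a textbook marker of hypoxia) overlaps no other gene on its strand. It had 3, 0 and 0 counts with sgRNA-PURPL#1 and 0, 2 and 0 with sgRNA-PURPL#2, against 2, 0 and 0 in sgCtrl. With overexpression it had 0 counts in all 3 PURPL#1-OE libraries and 0, 1 and 0 in PURPL#2-OE, against 0 in all 3 Ctrl libraries, where a count of 0 allows up to 3 counts per library. EGLN3 had 0 to 3 counts per knockdown library and was tested only in the overexpression table, where it did not pass, with log2 fold changes of 1.13 ± 0.478 (SE) in PURPL#1-OE and 1.03 ± 0.495 in PURPL#2-OE. After a filter on low counts, 34 of the 39 genes were tested with knockdown and 35 with overexpression. Among those tested, PGK1 shares 63.9% of its span and HIF1A 30.1% with same-strand neighbours, so part of their reads may be missing.

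Of the 39 genes, 35 have at least 1 entry in RefSeq's promoter table for GRCh38.p14, with 63 annotated starts in all. The core of HIF sites was searched on both strands of the 250 bases before each start as ACGTG and GCGTG; the palindrome CACGTG holds ACGTG on both strands, so it counts as 2 overlapping matches. A match to either was found in 38 of the 63 windows (60.3%), against 15172 of the 35116 windows in the table (43.2%). ACGTG was found in 36.5% of these genes' windows and in 18.5% of all windows, and GCGTG in 34.9% and 32.2%. Windows of the other HIF targets held a match in 9 of 10 cases and those of the glycolytic enzymes in 18 of 36. These are shares of starts and not of genes: HK1 and PFKM have 7 starts each, most of them without a match. By gene, 29 of the 35 had a match in at least 1 window. A gene with more starts has more windows that can hold a match. The share by gene over all genes was not computed, and the share of all windows is no measure of it. The windows of 4 genes are printed because their genes carry the main patterns below: SLC2A1, LDHA and GAPDH, which moved in opposite directions with knockdown and overexpression, and HK2, which fell most with overexpression. They run 5′ to 3′ on the gene's strand, the matches are in capitals, and they lie at chr1:42958869-42959118 (minus strand), chr11:18394313-18394562 (plus), chr12:6535014-6535263 (plus) and chr2:74833877-74834126 (plus).
SLC2A1: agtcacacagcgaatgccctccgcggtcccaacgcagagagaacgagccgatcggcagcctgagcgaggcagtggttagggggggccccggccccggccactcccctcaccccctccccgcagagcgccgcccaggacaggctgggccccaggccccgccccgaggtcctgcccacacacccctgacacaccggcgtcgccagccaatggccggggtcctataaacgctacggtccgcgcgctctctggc
LDHA: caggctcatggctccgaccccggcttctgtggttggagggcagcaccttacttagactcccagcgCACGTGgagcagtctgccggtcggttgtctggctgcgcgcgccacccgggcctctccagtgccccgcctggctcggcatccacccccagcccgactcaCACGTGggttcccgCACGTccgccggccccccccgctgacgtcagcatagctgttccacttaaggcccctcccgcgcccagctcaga
GAPDH: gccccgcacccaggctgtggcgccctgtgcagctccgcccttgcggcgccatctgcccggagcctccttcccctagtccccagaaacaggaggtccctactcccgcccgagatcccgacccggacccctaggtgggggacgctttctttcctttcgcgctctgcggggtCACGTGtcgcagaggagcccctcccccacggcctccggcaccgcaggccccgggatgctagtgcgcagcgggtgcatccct
HK2: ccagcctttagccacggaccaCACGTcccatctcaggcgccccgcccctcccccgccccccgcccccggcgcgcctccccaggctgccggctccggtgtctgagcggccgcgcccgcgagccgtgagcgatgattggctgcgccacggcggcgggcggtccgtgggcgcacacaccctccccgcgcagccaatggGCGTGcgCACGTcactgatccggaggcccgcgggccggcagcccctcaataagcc
In this window SLC2A1 had no match. LDHA had 5, among them a pair of CACGTG palindromes, GAPDH had 1 palindrome counted as 2 matches, and HK2 had 3 at this start and 6 at its second annotated start. A match is a stretch of letters, not a shown binding site.

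With either guide, the genes that changed were mostly lower. With sgRNA-PURPL#1, 17 of the 34 tested genes fell and 2 rose, where 24.5% of all 13923 genes tested passed in either direction (12.9% lower, 11.6% higher). Of the 2 that rose, EPAS1 was lost without any library but sgCtrl replicate 3 and KDM3A without 5 libraries, so that the count went to 0 to 2. With sgRNA-PURPL#2, 13 fell and 3 rose, against a background of 24.4% (12.4% lower, 11.9% higher). With both guides 9 genes fell: the transporter SLC2A1, the enzymes HK1, TPI1, GAPDH, PGK1 and LDHA, the kinase PDK1, and the HIF targets BNIP3 and ADM. EPAS1 rose with both. The median log2 fold change of the tested genes was -0.20 with sgRNA-PURPL#1 and -0.15 with sgRNA-PURPL#2, beside 0.00 over all genes for both. Both guides share the sgCtrl libraries, so they are not independent of each other. The share of all genes that fell, or rose, with both guides was not computed, so these shared calls have no background. With sgRNA-PURPL#2 the calls for HK1, TPI1, GAPDH and PGK1 were lost in some alternative settings. With sgRNA-PURPL#1 those for HK1, BNIP3 and EPAS1 were. Leaving out sgCtrl replicate 2 or sgRNA-PURPL#2 replicate 3 lowered the count with sgRNA-PURPL#2 to 8 genes lower. Calls use an adjusted p under 0.05 from edgeR's quasi-likelihood test, adjusted by Benjamini and Hochberg's method over all genes tested, and levels are CPM scaled by TMM.

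**Figure D1:**
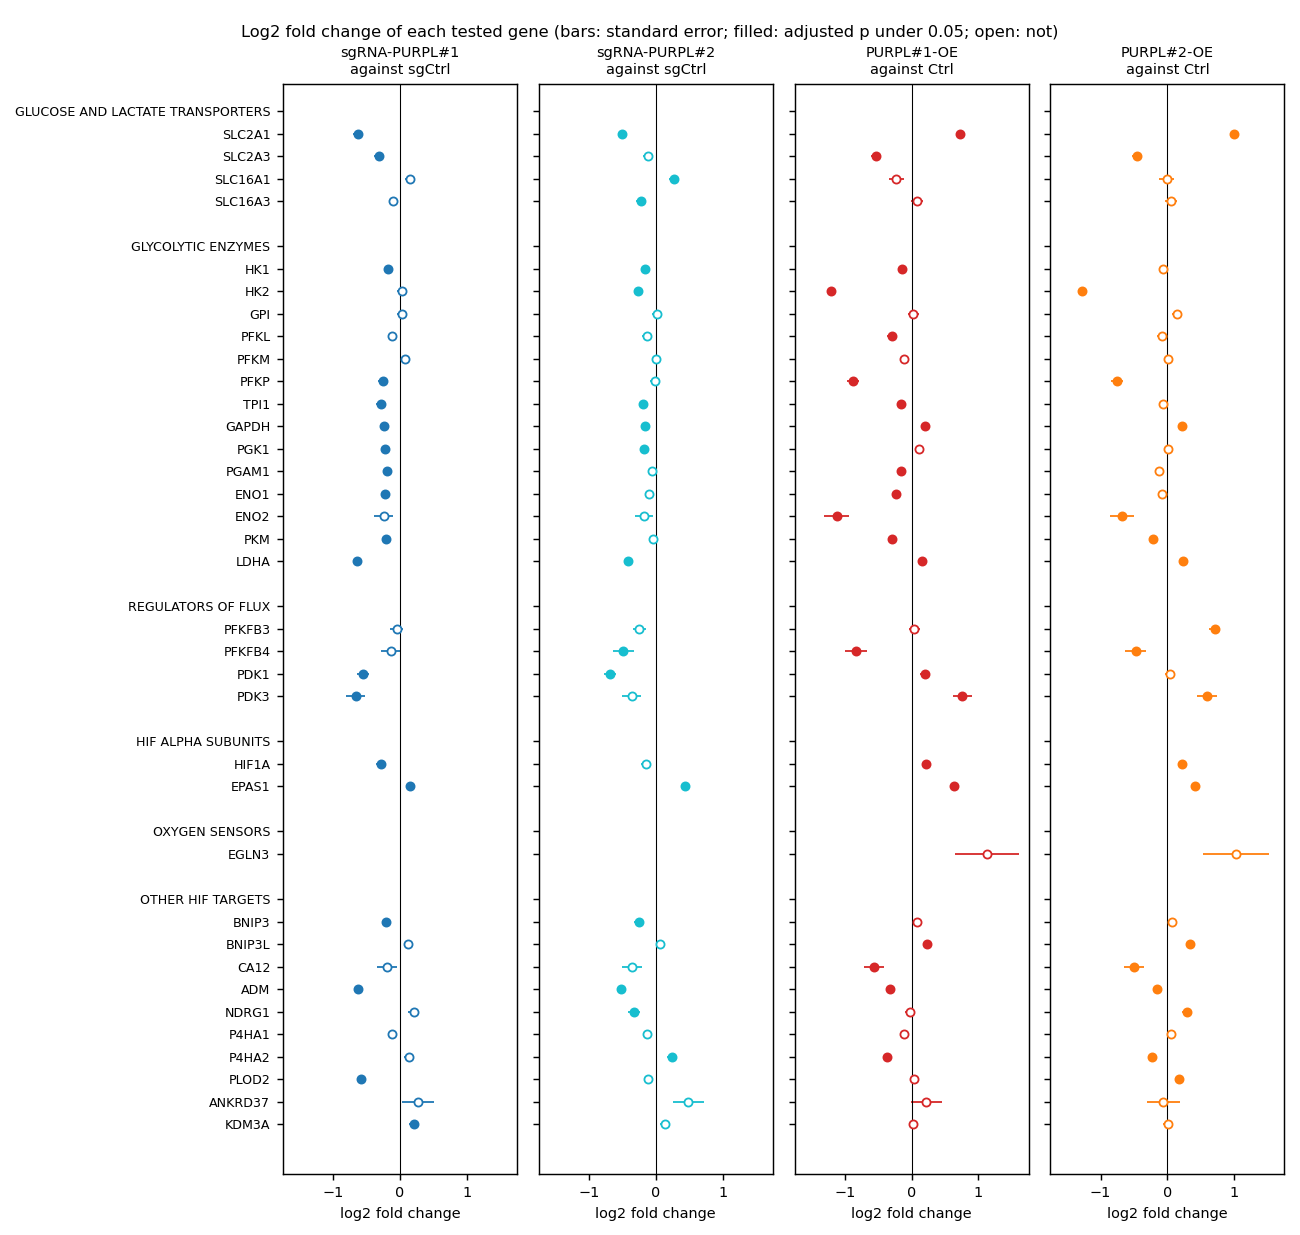
Log2 fold change (x axis) of every tested gene (rows, grouped by role) in each of the 4 comparisons with a control, with bars of 1 standard error; filled points had an adjusted p under 0.05 and open points did not. SLC2A1 and LDHA lie left of 0 with both guides and right of 0 in both overexpression groups, and HK2, PFKP and ENO2 lie farther to the left in the overexpression groups than with the guides.

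SLC2A1 (GLUT1, the basal glucose importer of most cells, at chr1:42925353-42958893) had 94.5, 102 and 104 CPM with sgRNA-PURPL#1 and 107, 111 and 112 CPM with sgRNA-PURPL#2, against 161, 157 and 149 CPM in sgCtrl. Both guide groups lay wholly below sgCtrl, with log2 fold changes of -0.64 ± 0.0611 (SE, n = 3 libraries a group; edgeR adjusted p = 1.71e-09) and -0.50 ± 0.0607 (edgeR adjusted p = 1.96e-07). With overexpression it had 97.9, 94.6 and 99.0 CPM in PURPL#1-OE and 129, 110 and 113 CPM in PURPL#2-OE, against 59.9, 58.7 and 58.3 CPM in Ctrl. Here both groups lay wholly above their control, by 0.72 ± 0.0585 (edgeR adjusted p = 1.59e-11) and 0.99 ± 0.0586 (edgeR adjusted p = 1.28e-14), and PURPL#2-OE exceeded PURPL#1-OE by 0.27 ± 0.0568. None of these 4 calls was lost in any alternative setting.

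The other transporters did not share this pattern. SLC2A3 (GLUT3, a high-affinity glucose importer) fell with sgRNA-PURPL#1 (-0.32 ± 0.0708) and did not pass with sgRNA-PURPL#2 (-0.12 ± 0.07), and it also fell in PURPL#1-OE (-0.54 ± 0.0634) and PURPL#2-OE (-0.46 ± 0.0638). SLC16A1 (MCT1, a lactate and pyruvate carrier) rose with sgRNA-PURPL#2 (0.27 ± 0.067) and had 0.15 ± 0.0674 with sgRNA-PURPL#1. SLC16A3 (MCT4, a lactate exporter of glycolytic cells) fell with sgRNA-PURPL#2 (-0.23 ± 0.067) and had -0.10 ± 0.0666 with sgRNA-PURPL#1. The call for SLC16A3 was lost without sgCtrl replicate 1 or sgRNA-PURPL#2 replicate 3 (-0.19 to -0.17, edgeR adjusted p = 0.0502 to 0.0804). For neither carrier did the guides differ from each other by the test, and neither passed in an overexpression group.

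The glycolytic enzymes that passed with a guide were all lower. Of the 14 measured, 9 fell and none rose with sgRNA-PURPL#1, and 6 fell and none rose with sgRNA-PURPL#2, with median log2 fold changes of -0.22 and -0.15. The count with sgRNA-PURPL#2 rests on single libraries: it was 2 (HK2 and LDHA) without sgCtrl replicate 2 or sgRNA-PURPL#2 replicate 3, 3 when any 1 of the other 5 guide libraries was left out, 4 without sgCtrl replicate 1, and 7 without sgCtrl replicate 3. It was also 3 with only the 2 groups compared in the fit and 4 with upper-quartile scaling or the replicate block. No enzyme was higher with a guide at an unadjusted p under 0.05 in edgeR or at an adjusted p under 0.05 in DESeq2. LDHA (lactate dehydrogenase A, which makes lactate from pyruvate, at chr11:18394560-18408425) changed most. It had 733, 727 and 733 CPM with sgRNA-PURPL#1 and 877, 873 and 816 CPM with sgRNA-PURPL#2, against 1161, 1106 and 1171 CPM in sgCtrl. Neither guide group overlapped sgCtrl, and the log2 fold changes were -0.65 ± 0.0558 (edgeR adjusted p = 1.89e-10) and -0.42 ± 0.0557 (edgeR adjusted p = 7.83e-07). LDHA was 0.23 ± 0.0557 higher with sgRNA-PURPL#2 than with sgRNA-PURPL#1 (edgeR adjusted p = 0.00675).

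GAPDH (glyceraldehyde-3-phosphate dehydrogenase, chr12:6534512-6538374), often used to scale other transcripts, had 883, 905 and 891 CPM with sgRNA-PURPL#1 and 988, 920 and 927 CPM with sgRNA-PURPL#2, against 1127, 1066 and 978 CPM in sgCtrl. Only the sgRNA-PURPL#1 libraries all lay below sgCtrl, and the log2 fold changes were -0.24 ± 0.0591 (edgeR adjusted p = 0.00244) and -0.16 ± 0.059 (edgeR adjusted p = 0.0444). The call with sgRNA-PURPL#2 was lost when any of 7 single libraries was left out (-0.16 to -0.12, edgeR adjusted p = 0.0591 to 0.167): sgCtrl replicate 1 or 2, any sgRNA-PURPL#1 library, or sgRNA-PURPL#2 replicate 2 or 3. TPI1 (triose phosphate isomerase) had 192, 178 and 197 CPM with sgRNA-PURPL#1 and 210, 194 and 205 CPM with sgRNA-PURPL#2, against 257, 229 and 208 CPM in sgCtrl. Its log2 fold changes were -0.29 ± 0.0672 (edgeR adjusted p = 0.00158) and -0.19 ± 0.0671 (edgeR adjusted p = 0.0424), and the call with sgRNA-PURPL#2, whose range overlaps sgCtrl, was lost when any of 8 single libraries was left out (-0.21 to -0.11, edgeR adjusted p = 0.0517 to 0.194), all but sgCtrl replicate 3. HK1 (hexokinase 1) and PGK1 (phosphoglycerate kinase 1) fell with both guides, HK1 with -0.17 ± 0.0601 for each and PGK1 with -0.22 ± 0.055 and -0.18 ± 0.0549. Leaving out 1 library ended the HK1 calls without sgCtrl replicate 2 or any sgRNA-PURPL#1 library with the first guide (edgeR adjusted p = 0.059 to 0.225), and without sgCtrl replicate 2 or any guide library with the second (edgeR adjusted p = 0.0557 to 0.274). It ended the PGK1 call with sgRNA-PURPL#2 without sgCtrl replicate 2 or sgRNA-PURPL#2 replicate 1 or 3 (edgeR adjusted p = 0.0597 to 0.0668).

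Like LDHA, HK2 and PFKP differed between the guides. HK2 (hexokinase 2, the inducible hexokinase) fell with sgRNA-PURPL#2 (-0.26 ± 0.0648) and had 0.02 ± 0.0641 with sgRNA-PURPL#1, and the difference between the guides, -0.28 ± 0.0648, passed. PFKP (the platelet form of phosphofructokinase) fell with sgRNA-PURPL#1 (-0.26 ± 0.0688) and had -0.02 ± 0.0681 with sgRNA-PURPL#2, a difference of 0.24 ± 0.0689 that also passed, while the liver and muscle forms PFKL and PFKM passed with neither guide. PFKP's call with sgRNA-PURPL#1 was lost without sgCtrl replicate 2 (-0.19, edgeR adjusted p = 0.0724). Its difference between the guides was lost without sgRNA-PURPL#1 replicate 1 or 3 or sgRNA-PURPL#2 replicate 2 or 3 (edgeR adjusted p = 0.0677 to 0.123). ENO1 (enolase 1), PKM (muscle pyruvate kinase) and PGAM1 (phosphoglycerate mutase 1) fell with sgRNA-PURPL#1 (-0.23 ± 0.0567, -0.21 ± 0.0565 and -0.20 ± 0.0622) and had -0.10 ± 0.0567, -0.05 ± 0.0565 and -0.05 ± 0.062 with sgRNA-PURPL#2, differences between the guides that did not pass. The PGAM1 call was lost without sgCtrl replicate 1 or sgRNA-PURPL#1 replicate 3 (edgeR adjusted p = 0.0606 to 0.0729). GPI (glucose 6-phosphate isomerase) passed in none of the 4 comparisons.

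Among the regulators of flux, PDK1 (pyruvate dehydrogenase kinase 1, which keeps pyruvate out of mitochondria, chr2:172555373-172608669) fell with both guides. It had 26.0, 23.5 and 25.1 CPM with sgRNA-PURPL#1 and 23.6, 23.6 and 20.6 CPM with sgRNA-PURPL#2, against 33.8, 35.9 and 39.5 CPM in sgCtrl. All 6 guide libraries lay below the 3 control libraries, with log2 fold changes of -0.55 ± 0.0864 (edgeR adjusted p = 1.14e-05) and -0.69 ± 0.0874 (edgeR adjusted p = 4.15e-07). PDK3, a further kinase of that family, had 6.85, 6.58 and 7.15 CPM with sgRNA-PURPL#1 and 8.76, 6.80 and 9.79 CPM with sgRNA-PURPL#2, against 10.2, 10.1 and 12.2 CPM in sgCtrl. It fell with sgRNA-PURPL#1 (-0.66 ± 0.144) and, although its ranges did not overlap, did not pass with sgRNA-PURPL#2 (-0.36 ± 0.14, edgeR adjusted p = 0.0595).

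PFKFB3 and PFKFB4 make fructose 2,6-bisphosphate, the activator of phosphofructokinase. PFKFB3 had 33.4, 31.2 and 26.2 CPM with sgRNA-PURPL#1 and 28.7, 24.7 and 26.3 CPM with sgRNA-PURPL#2, against 28.4, 32.2 and 33.7 CPM in sgCtrl, and passed with neither (-0.05 ± 0.0923 and -0.24 ± 0.0938). PFKFB4 had 6.85, 9.27 and 10.3 CPM with sgRNA-PURPL#1 and 8.01, 7.05 and 5.64 CPM with sgRNA-PURPL#2, against 9.80, 10.04 and 9.16 CPM in sgCtrl. Only the sgRNA-PURPL#2 libraries lay wholly below sgCtrl, and it fell there (-0.49 ± 0.155, edgeR adjusted p = 0.0205), a call lost without sgCtrl replicate 2 or sgRNA-PURPL#2 replicate 3 (-0.46 to -0.36, edgeR adjusted p = 0.0737 to 0.146).

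The alpha subunits of HIF had changes of opposite sign with each guide, but both passed only with sgRNA-PURPL#1. They were not tested against each other. HIF1A (chr14:61695513-61748259) had 186, 186 and 195 CPM with sgRNA-PURPL#1 and 209, 212 and 205 CPM with sgRNA-PURPL#2, against 200, 228 and 266 CPM in sgCtrl, whose libraries spread widely. It fell with sgRNA-PURPL#1 (-0.29 ± 0.0723, edgeR adjusted p = 0.00334) and did not pass with sgRNA-PURPL#2 (-0.15 ± 0.072, edgeR adjusted p = 0.142). These values turn on the control libraries: without sgCtrl replicate 3 they were -0.18 (edgeR adjusted p = 0.0325) and -0.03 (edgeR adjusted p = 0.75), and without sgCtrl replicate 1 they were -0.39 and -0.24, both past the threshold (edgeR adjusted p = 4.92e-07 and 0.00113). EPAS1 (HIF-2 alpha, chr2:46293667-46386697) had 916, 930 and 951 CPM with sgRNA-PURPL#1 and 1121, 1169 and 1130 CPM with sgRNA-PURPL#2, against 801, 852 and 867 CPM in sgCtrl. Every guide library was above every sgCtrl library, with log2 fold changes of 0.15 ± 0.0556 (edgeR adjusted p = 0.0465) and 0.44 ± 0.0557 (edgeR adjusted p = 3.88e-07), and sgRNA-PURPL#2 exceeded sgRNA-PURPL#1 by 0.29 ± 0.0556. The call with sgRNA-PURPL#1 was lost when any single library but sgCtrl replicate 3 was left out (0.11 to 0.16, edgeR adjusted p = 0.0545 to 0.169).

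The other HIF targets did not move as a group. Of the 10 measured, 3 fell and 1 rose with each guide, and their median log2 fold changes were 0.00 with sgRNA-PURPL#1 and -0.13 with sgRNA-PURPL#2. ADM (adrenomedullin, a vasodilating peptide, chr11:10305073-10307397) had 318, 310 and 318 CPM with sgRNA-PURPL#1 and 345, 327 and 353 CPM with sgRNA-PURPL#2, against 513, 514 and 440 CPM in sgCtrl. It lay wholly below sgCtrl with both guides, by -0.63 ± 0.0618 (edgeR adjusted p = 2.37e-09) and -0.52 ± 0.0616 (edgeR adjusted p = 1.42e-07). BNIP3, a receptor for mitophagy, fell with both guides (-0.20 ± 0.0648 and -0.25 ± 0.065), a call lost with sgRNA-PURPL#1 when its replicate 1 or 3 was left out (-0.19 to -0.18, edgeR adjusted p = 0.0757 to 0.0974). PLOD2 (a collagen lysyl hydroxylase) fell with sgRNA-PURPL#1 (-0.58 ± 0.0594) and had -0.12 ± 0.0585 with sgRNA-PURPL#2. NDRG1 (a stress-responsive gene) fell with sgRNA-PURPL#2 (-0.33 ± 0.0836) and had 0.20 ± 0.0801 with sgRNA-PURPL#1. Both differences between the guides passed, at 0.46 ± 0.0595 for PLOD2 and -0.53 ± 0.0824 for NDRG1. P4HA2 (a collagen prolyl hydroxylase) rose with sgRNA-PURPL#2 (0.24 ± 0.0652) and KDM3A (a histone demethylase) with sgRNA-PURPL#1 (0.21 ± 0.0715). The KDM3A call was lost without sgCtrl replicate 1 or 2 or any sgRNA-PURPL#1 library (edgeR adjusted p = 0.0638 to 0.108).

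**Figure D2:**
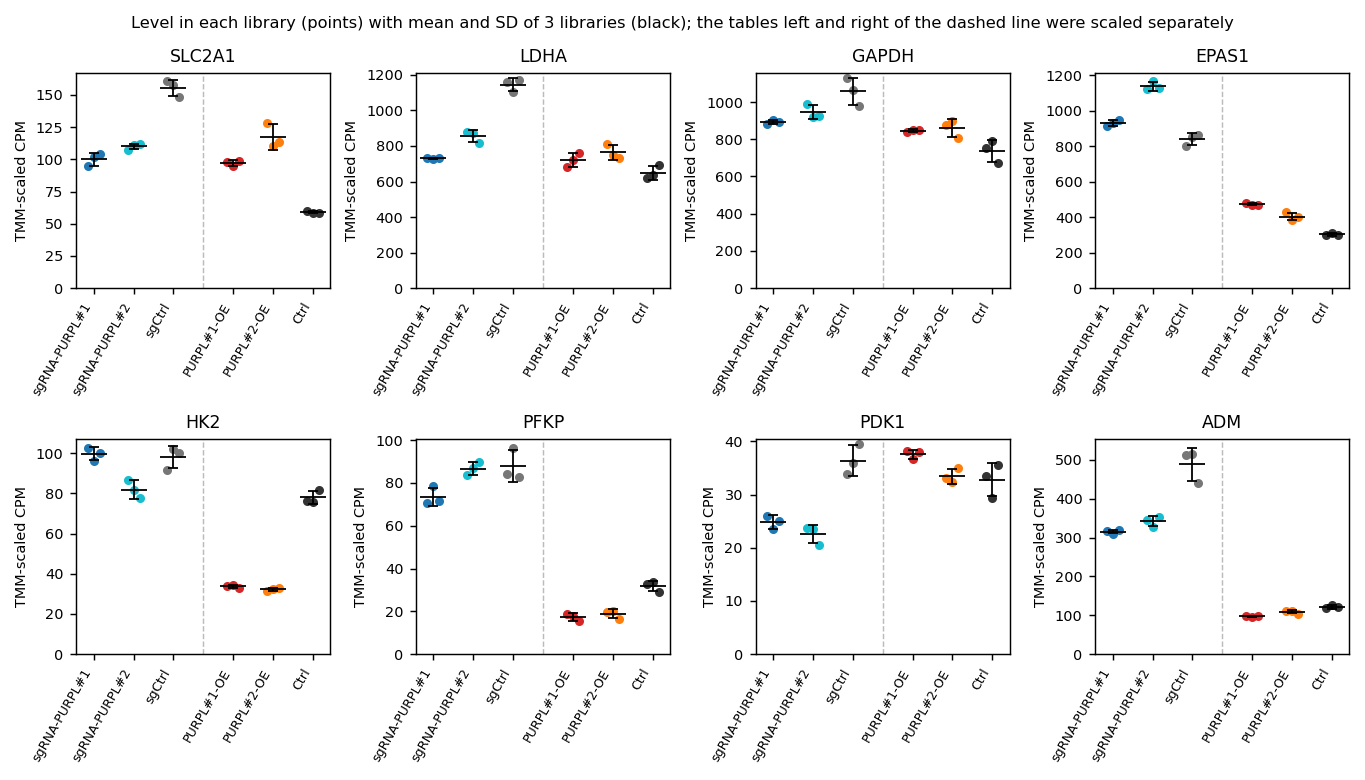
TMM-scaled CPM (y axis, from 0) of 8 genes in every library (points) with the mean and SD of 3 libraries (black) in each group; the tables on either side of the dashed line were scaled separately. SLC2A1 and LDHA are below sgCtrl with both guides, EPAS1 is above its control in all 4 groups, and HK2 lies below 35 CPM in every overexpression library.

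With overexpression of PURPL, these genes changed in both directions. In PURPL#1-OE, 14 of the 35 tested genes fell and 8 rose, where 39.6% of all 15267 genes tested passed in either direction (20.1% lower, 19.5% higher). In PURPL#2-OE, 9 fell and 10 rose, against 38.5% (19.6% lower, 18.9% higher). In both groups 9 genes fell, SLC2A3, HK2, PFKP, ENO2, PKM, PFKFB4, CA12, ADM and P4HA2. Another 7 rose in both, SLC2A1, GAPDH, LDHA, PDK3, HIF1A, EPAS1 and BNIP3L. The median log2 fold changes were -0.03 in PURPL#1-OE and 0.01 in PURPL#2-OE, each beside 0.01 over all genes. Both groups share the Ctrl libraries, so calls in both are not independent. The share of all genes that fell, or rose, in both groups was not computed, so these shared counts have no background.

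HK2 (chr2:74834127-74893359) fell more than any other of these genes in both groups. It had 34.1, 34.3 and 32.95 CPM in PURPL#1-OE and 31.3, 32.2 and 33.2 CPM in PURPL#2-OE, against 76.5, 76.0 and 82.0 CPM in Ctrl. Every overexpression library was below 35 CPM and every control library above 75 CPM, with log2 fold changes of -1.21 ± 0.0602 (edgeR adjusted p = 1.79e-16) and -1.28 ± 0.0611 (edgeR adjusted p = 7.84e-17). With the guides it had 103, 96.2 and 100.4 CPM with sgRNA-PURPL#1 and 86.7, 81.6 and 77.5 CPM with sgRNA-PURPL#2, against 91.9, 102 and 99.98 CPM in sgCtrl, and only the second guide's libraries lay below the control.

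PFKP had 18.85, 17.9 and 15.5 CPM in PURPL#1-OE and 19.8, 20.3 and 16.6 CPM in PURPL#2-OE, against 32.9, 33.7 and 29.0 CPM in Ctrl. The groups did not overlap (-0.87 ± 0.0913 and -0.76 ± 0.0919, edgeR adjusted p = 3.9e-09 and 7.28e-08). With the guides PFKP had 70.4, 78.4 and 71.6 CPM with sgRNA-PURPL#1 and 83.5, 87.0 and 89.7 CPM with sgRNA-PURPL#2, against 84.3, 96.4 and 82.8 CPM in sgCtrl, so that only sgRNA-PURPL#1 lay wholly below its control. ENO2 (neuronal enolase) had 4.19, 2.70 and 3.36 CPM in PURPL#1-OE and 5.70, 4.91 and 3.57 CPM in PURPL#2-OE, against 7.25, 9.19 and 5.94 CPM in Ctrl. It fell in both without overlap (-1.12 ± 0.184 and -0.68 ± 0.18, edgeR adjusted p = 2.44e-05 and 0.00396), while with the guides it passed in neither comparison, at 11.44, 11.02 and 7.50 CPM with sgRNA-PURPL#1 and 9.996, 11.6 and 9.94 CPM with sgRNA-PURPL#2 against 10.8, 12.92 and 11.9 CPM in sgCtrl.

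Over all 14 measured enzymes, 9 fell and 2 rose in PURPL#1-OE, and 4 fell and 2 rose in PURPL#2-OE, with medians of -0.16 and -0.07. The pair that rose was GAPDH and LDHA. In PURPL#1-OE the counts were 6 lower and 1 higher without 1 of its own libraries, and 7 and 1 without Ctrl replicate 2. GAPDH had 838, 851 and 848 CPM in PURPL#1-OE and 876, 898 and 805 CPM in PURPL#2-OE, against 750.4, 789 and 672 CPM in Ctrl, without overlap (0.20 ± 0.0565 and 0.22 ± 0.0566, edgeR adjusted p = 0.00576 and 0.00231). LDHA had 681, 718 and 762 CPM in PURPL#1-OE and 813, 748 and 734 CPM in PURPL#2-OE, against 617, 636 and 695 CPM in Ctrl, and only PURPL#2-OE lay wholly above Ctrl (0.15 ± 0.0563 and 0.24 ± 0.0564, edgeR adjusted p = 0.0343 and 0.00116). In PURPL#1-OE the LDHA call was lost without Ctrl replicate 1 or 2 or either of 2 PURPL#1-OE libraries (0.11 to 0.15, edgeR adjusted p = 0.077 to 0.212), and the GAPDH call without Ctrl replicate 3 (0.14, edgeR adjusted p = 0.0519). PKM fell in both groups (-0.29 ± 0.0503 and -0.22 ± 0.0503). TPI1 had 140, 126 and 127 CPM in PURPL#1-OE and 138, 144 and 139 CPM in PURPL#2-OE, against 142, 151 and 146 CPM in Ctrl. It fell in PURPL#1-OE (-0.16 ± 0.0528), a call lost without Ctrl replicate 2 or either of 2 PURPL#1-OE libraries (-0.14 to -0.13, edgeR adjusted p = 0.0679 to 0.115).

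The regulators of flux split in the overexpression table. PDK3 had 9.59, 7.91 and 6.92 CPM in PURPL#1-OE and 7.14, 6.29 and 8.36 CPM in PURPL#2-OE, against 4.83, 5.24 and 4.34 CPM in Ctrl, and rose in both without overlap (0.76 ± 0.141 and 0.59 ± 0.145, edgeR adjusted p = 6.13e-05 and 0.00148). PFKFB4 had 2.79, 2.203 and 2.81 CPM in PURPL#1-OE and 3.57, 3.47 and 3.07 CPM in PURPL#2-OE, against 4.44, 4.53 and 5.11 CPM in Ctrl, and fell in both without overlap (-0.84 ± 0.164 and -0.48 ± 0.162, edgeR adjusted p = 0.00012 and 0.0199). The PFKFB4 call in PURPL#2-OE was lost without Ctrl replicate 3 or PURPL#2-OE replicate 3 (-0.42 to -0.41, edgeR adjusted p = 0.0756 to 0.0839). PFKFB3 differed between the overexpression groups. It had 23.8, 23.4 and 22.8 CPM in PURPL#1-OE and 40.7, 34.5 and 36.1 CPM in PURPL#2-OE, against 24.6, 21.4 and 22.0 CPM in Ctrl. It rose in PURPL#2-OE (0.71 ± 0.0791, edgeR adjusted p = 1.49e-08) and had 0.04 ± 0.0806 in PURPL#1-OE, and the difference between the groups was 0.67 ± 0.0785 (edgeR adjusted p = 2.76e-07). PDK1 had 38.2, 36.6 and 37.9 CPM in PURPL#1-OE and 33.1, 32.3 and 34.95 CPM in PURPL#2-OE, against 33.5, 29.4 and 35.6 CPM in Ctrl. It rose in PURPL#1-OE (0.20 ± 0.072, edgeR adjusted p = 0.029), a call lost without Ctrl replicate 1 or 2 or either of 2 PURPL#1-OE libraries (0.12 to 0.21, edgeR adjusted p = 0.052 to 0.225).

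Both HIF alpha subunits rose in both overexpression groups. HIF1A had 276, 284 and 284 CPM in PURPL#1-OE and 291, 260 and 290 CPM in PURPL#2-OE, against 239.8, 239 and 247 CPM in Ctrl. No library overlapped the control, and the log2 fold changes were 0.22 ± 0.0517 (edgeR adjusted p = 0.00113) and 0.21 ± 0.0518 (edgeR adjusted p = 0.0015). EPAS1 had 478, 471 and 469 CPM in PURPL#1-OE and 427, 384 and 402 CPM in PURPL#2-OE, against 301, 312 and 298 CPM in Ctrl. It rose by 0.64 ± 0.0507 (edgeR adjusted p = 1e-11) and 0.41 ± 0.0507 (edgeR adjusted p = 9.69e-08), and it was 0.23 on the log2 scale lower in PURPL#2-OE than in PURPL#1-OE (-0.23 ± 0.0504).

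Of the 10 other HIF targets measured, 3 fell and 1 rose in PURPL#1-OE, and 3 fell and 3 rose in PURPL#2-OE, with medians of 0.00 and 0.03. ADM had 98.4, 95.3 and 97.2 CPM in PURPL#1-OE and 112, 111 and 104 CPM in PURPL#2-OE, against 118, 127 and 121 CPM in Ctrl, and lay wholly below the control in both (-0.33 ± 0.0523 and -0.16 ± 0.0524, edgeR adjusted p = 6.91e-06 and 0.0162). The call in PURPL#2-OE was lost without Ctrl replicate 2 or PURPL#2-OE replicate 3 (edgeR adjusted p = 0.0822 to 0.0823, both at -0.13). CA12 (carbonic anhydrase 12, of pH control) fell in both (-0.56 ± 0.151 and -0.50 ± 0.153), calls that were lost without Ctrl replicate 2 (-0.37 and -0.31, edgeR adjusted p = 0.0674 and 0.134) and, in PURPL#2-OE, without 1 of its own libraries (-0.37, edgeR adjusted p = 0.0788). P4HA2 fell in both (-0.37 ± 0.0552 and -0.23 ± 0.0553). BNIP3L (NIX, a mitophagy receptor) rose in both (0.23 ± 0.049 and 0.33 ± 0.0491), and NDRG1 and PLOD2 rose in PURPL#2-OE (0.29 ± 0.0662 and 0.18 ± 0.0505) and had -0.03 ± 0.0664 and 0.04 ± 0.0505 in PURPL#1-OE. The difference between these groups passed for NDRG1 and not for PLOD2 (edgeR adjusted p = 0.00111 and 0.0692).

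**Figure D3:**
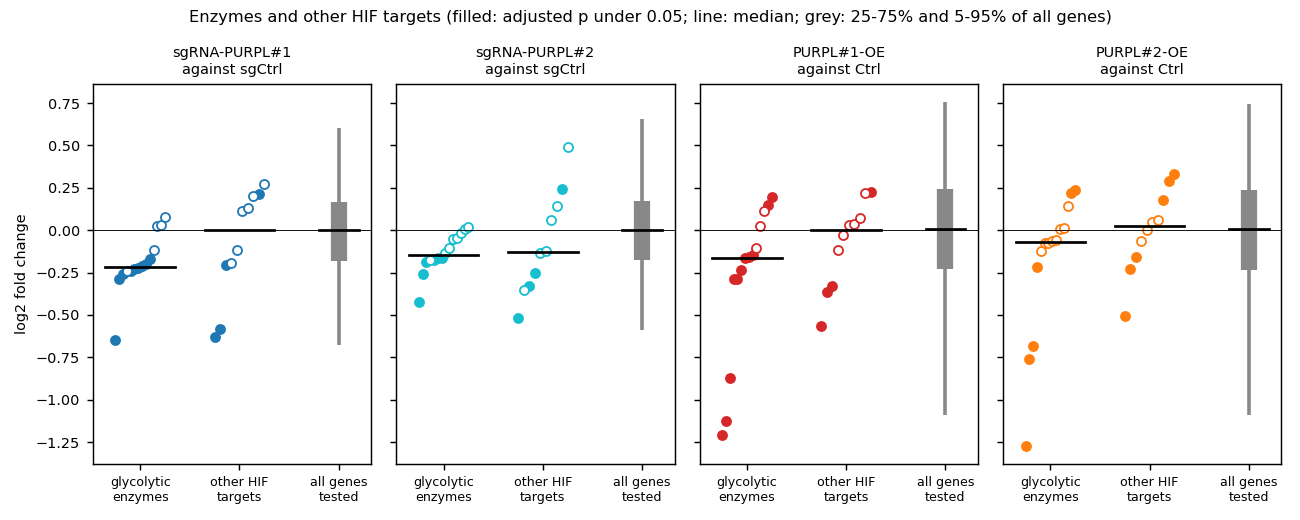
Log2 fold changes (y axis) of the 14 measured glycolytic enzymes and the 10 measured other HIF targets in each comparison with a control, with their medians as lines, beside the middle 50% (thick grey) and 90% (thin grey) of all genes tested. The enzymes' median is below 0 in all 4 panels, from -0.22 to -0.07, and that of the other targets runs from -0.13 to 0.03.

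Set beside each other and beside all genes tested, the classes differed in the share of their genes that passed, though little with sgRNA-PURPL#2. With sgRNA-PURPL#1, 64.3% of 14 enzymes and 40% of 10 other HIF targets passed, beside 24.5% of all genes. With sgRNA-PURPL#2 the shares were 42.9% and 40%, beside 24.4%. In PURPL#1-OE they were 78.6% and 40%, beside 39.6%, and in PURPL#2-OE 42.9% and 60%, beside 38.5%, so the other targets in PURPL#1-OE and the enzymes in PURPL#2-OE lay near the share of all genes. The enzymes' calls were all lower with the guides. The other targets had 1 call higher with each guide, KDM3A with sgRNA-PURPL#1, which was lost with DESeq2 and without any of 5 libraries, and P4HA2 with sgRNA-PURPL#2. Several counts moved when 1 library was left out. The enzymes lower with sgRNA-PURPL#1 went from 9 to 7 without sgCtrl replicate 2 or sgRNA-PURPL#1 replicate 3, and to 10 without sgCtrl replicate 3. Those lower with sgRNA-PURPL#2 went to 2 without sgCtrl replicate 2 or sgRNA-PURPL#2 replicate 3. In PURPL#1-OE the enzymes went from 9 lower and 2 higher to 6 and 1 without 1 of its own libraries. They went to 7 and 1 without Ctrl replicate 2, and to 9 and 3 without PURPL#2-OE replicate 3. The other targets lower with sgRNA-PURPL#2 went to 5 without sgCtrl replicate 1, and those lower in PURPL#2-OE to 1 without Ctrl replicate 2. The median log2 fold change was -0.22 for the enzymes and 0.00 for the other targets with sgRNA-PURPL#1, -0.15 and -0.13 with sgRNA-PURPL#2, -0.16 and 0.00 in PURPL#1-OE, and -0.07 and 0.03 in PURPL#2-OE. A share also depends on how precisely its genes were measured. With sgRNA-PURPL#2, HK1 passed at -0.17 ± 0.0601, while CA12 at -0.36 ± 0.149 and ANKRD37 at 0.49 ± 0.234 did not. The part of this precision in the shares was not tested. These counts and medians describe the 2 classes, and no test of the difference between them was made.

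Set directly against each other, the guides differed in 6 of the 34 genes (4 higher and 2 lower with sgRNA-PURPL#2), where 9.25% of all genes passed (5.51% higher, 3.74% lower). The overexpression groups differed in 6 of 35 (5 higher and 1 lower in PURPL#2-OE), where 12.4% of all genes passed (6.18% higher, 6.19% lower). No gene of the 39 passed in opposite directions with the 2 guides or in the 2 overexpression groups. The 4 genes higher between the guides became 7 without sgCtrl replicate 1, and the 5 between the overexpression groups became 9 without PURPL#2-OE replicate 3 and 3 without either of 2 PURPL#1-OE libraries or 1 unnumbered PURPL#2-OE library. The enzymes that differed between the guides were HK2, PFKP and LDHA, within the limit given for PFKP above.

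Knockdown and overexpression have separate controls, and each effect was taken against its own control. A joint fit of all 18 libraries tested the mean effect of both guides minus the mean effect of both overexpression groups in 15166 genes, 34 of them among the 39. The difference passed for 20 of these 34 genes (6 higher, 14 lower), against 33.6% of all genes (18% higher, 15.6% lower). On average, 5 genes fell with the guides and rose with overexpression, which is 14.7% of the 34 and compares with 2.91% of all genes in the fit: SLC2A1, LDHA, GAPDH, PDK3 and HIF1A. Calls of any kind were more frequent among the 34: 14.7% of them passed in neither experiment, against 46.2% of all genes. They were also chosen with earlier results of these data known. The difference was -1.42 ± 0.074 for SLC2A1, -1.18 ± 0.178 for PDK3, -0.72 ± 0.0715 for LDHA, -0.43 ± 0.0798 for HIF1A and -0.41 ± 0.0748 for GAPDH (edgeR adjusted p = 3.49e-20, 6.78e-07, 2.9e-11, 3.04e-05 and 2.48e-05). Of these 5, SLC2A1, LDHA and GAPDH passed in each of the 4 single comparisons, within the limits given for LDHA and GAPDH above. The controls themselves differed in level, in tables scaled separately. Mean CPM in sgCtrl and in Ctrl was 155.6 and 58.97 for SLC2A1, 10.86 and 4.803 for PDK3, and 1146 and 649.2 for LDHA. It was 1057 and 737.1 for GAPDH and closer for HIF1A, at 231.3 and 241.9. The part of these starting levels in the differences was not tested. PDK1 fell on average with the guides (-0.62 ± 0.0725), had 0.11 ± 0.0643 with overexpression, and differed by -0.73 ± 0.0971.

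Other genes moved in 1 experiment or the same way in both. ADM, SLC2A3, ENO1 and PKM were lower on average in both experiments (4 of 34, 11.8%, against 5.5% of all genes), and EPAS1 was higher in both (1 of 34, 2.94%, against 3.75%). P4HA2 was the only one of the 34 that rose on average with the guides and fell with overexpression, with a difference of 0.49 ± 0.0765. HK2, PFKP and ENO2 had mean guide effects that did not pass (-0.12 ± 0.053, -0.14 ± 0.0642 and -0.21 ± 0.146) and mean overexpression effects of -1.25 ± 0.0516, -0.82 ± 0.0696 and -0.91 ± 0.146. Their differences, 1.13 ± 0.0749, 0.68 ± 0.0954 and 0.70 ± 0.207, passed, the last not without Ctrl replicate 2 (0.52, edgeR adjusted p = 0.0541).

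**Figure D4:**
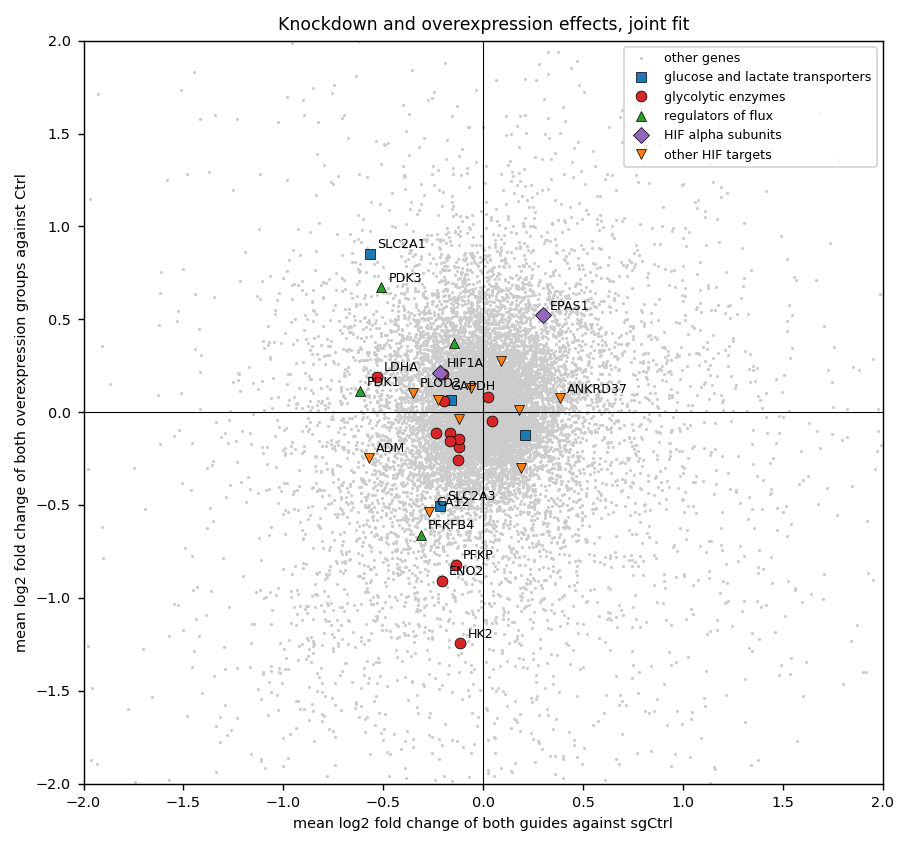
Mean log2 fold change of both guides against sgCtrl (x axis) and of both overexpression groups against Ctrl (y axis) from the joint fit, for 34 glycolysis and hypoxia genes (symbols by role) and all other genes (grey); 302 of the 15166 genes lie outside the axes. SLC2A1, PDK3, LDHA, GAPDH and HIF1A sit in the upper left, EPAS1 in the upper right, and HK2, ENO2 and PFKP near the middle at the bottom.

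A wider list of 58 genes of the same pathways was also read, of which 52 were tested with knockdown and 51 with overexpression. With sgRNA-PURPL#1, 15 rose and 9 fell (46.2% called, beside 24.5% of all genes). With sgRNA-PURPL#2, 13 rose and 6 fell (36.5%, beside 24.4%). In PURPL#1-OE, 19 rose and 9 fell (54.9%, beside 39.6%), and in PURPL#2-OE, 16 rose and 14 fell (58.8%, beside 38.5%). Of the 7 genes of the pentose phosphate pathway, which draws glucose 6-phosphate off into NADPH and ribose, 4 rose with sgRNA-PURPL#1, 3 with sgRNA-PURPL#2, 3 in PURPL#1-OE and 4 in PURPL#2-OE, and none fell in any of these, also at an unadjusted p under 0.05 in edgeR. These are 57.1%, 42.9%, 42.9% and 57.1% of the 7, and the share in PURPL#1-OE is close to the 39.6% of all genes. PGD (6-phosphogluconate dehydrogenase) and TKT (transketolase) rose in all 4, PGD by 0.46 ± 0.0611, 0.20 ± 0.0615, 0.20 ± 0.0548 and 0.25 ± 0.0551 in that order, and TKT by 0.33 ± 0.0603, 0.23 ± 0.0604, 0.30 ± 0.0694 and 0.68 ± 0.0694; both were singled out after their values were seen. All 4 measured components of the HIF machinery (ARNT, the beta subunit, VHL, HIF1AN and CITED2) rose in PURPL#1-OE, and 3 of them, without CITED2, in PURPL#2-OE. These are 100% and 75% of only 4 genes, beside 39.6% and 38.5% of all genes. With the guides, only CITED2 of these 4 passed, and it fell with both (-0.62 ± 0.0574 and -0.34 ± 0.057). That is 25% of the 4 with each guide, near the 24.5% and 24.4% of all genes.

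Among 23 measured further HIF targets, both directions were common. With sgRNA-PURPL#1, 6 rose and 7 fell, and with sgRNA-PURPL#2, 6 rose and 5 fell. In PURPL#1-OE, 6 rose and 7 fell, and in PURPL#2-OE, 5 rose and 10 fell. These are 56.5%, 47.8%, 56.5% and 65.2% of the 23, beside 24.5%, 24.4%, 39.6% and 38.5% of all genes. AK4 (a mitochondrial adenylate kinase) fell to 12.5, 11.97 and 9.41 CPM with sgRNA-PURPL#1 and 14.7, 14.4 and 15.4 CPM with sgRNA-PURPL#2, against 25.2, 28.4 and 28.8 CPM in sgCtrl (-1.28 ± 0.106 and -0.89 ± 0.102). DDIT4 (REDD1, an inhibitor of mTORC1) rose with both guides (0.87 ± 0.0946 and 1.09 ± 0.0931). So did HKDC1, a low-expressed hexokinase-like gene (0.92 ± 0.308 and 0.88 ± 0.31), listed with further glycolytic isoforms and regulators and not with the HIF targets. VEGFA, the angiogenic factor, also rose with both guides (0.40 ± 0.0632 and 0.53 ± 0.0629), fell in PURPL#1-OE (-0.31 ± 0.0653) and did not pass in PURPL#2-OE (-0.11 ± 0.0654); it was singled out after its values were seen. The stanniocalcins STC1 and STC2 fell in both overexpression groups, STC1 with -1.17 ± 0.0622 and -0.96 ± 0.0621 and STC2 with -1.11 ± 0.0513 and -1.03 ± 0.0512. STC1 also fell with sgRNA-PURPL#2 (-1.16 ± 0.0831) and had -0.11 ± 0.0766 with sgRNA-PURPL#1, and the guides differed (-1.04 ± 0.0837). MYC, a transcription factor that drives many glycolytic genes, was listed like HKDC1 outside the HIF targets. It fell in both overexpression groups (-0.72 ± 0.123 and -0.73 ± 0.124) and with sgRNA-PURPL#1 (-0.49 ± 0.111), and had 0.04 ± 0.106 with sgRNA-PURPL#2.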

How the data were processed

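Per the labels' protocols, poly(A) RNA was sequenced in 18 BJ libraries; the labels' molecule field, which reads genomic DNA, was not followed. The authors deposited raw counts per gene in 2 tables, whole numbers without normalization. Per the submitters' processing notes, reads were handled with HISAT2 2.1.0, featureCounts 2.0.1 of Subread, SAMtools 1.11, cutadapt 3.3, FastQC 0.11.9 and DESeq2 1.34.0 (builds hg38 and GRCh38.p13). Strand settings and annotation release: not given in the sources used here. Coordinates are those of the deposited tables. PCR copies of a molecule may count separately.

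Groups came from sample titles; 5 overexpression columns carry no replicate number and entered as unnumbered libraries. Each table was fitted in R 4.3.3 with edgeR 4.0.16: filterByExpr (min.count 10, min.total.count 15), TMM scaling and the quasi-likelihood test on all 9 libraries, with Benjamini-Hochberg adjustment at 0.05. A joint fit of 18 libraries compared both experiments, which are otherwise scaled separately. Standard errors are the log2 fold change divided by the square root of F. Levels are TMM-scaled CPM computed here from the deposited counts. The procedure was run on simulated data with changes larger than most of those reported here. Smaller changes were not simulated.

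Members and lists were chosen with earlier results of these data known. Values per library are printed for the 6 genes with the largest mean change among those called alike in both arms of a table, for genes called in opposite directions in the tables, and always for LDHA, LDHB, HK2, PFKFB3, HIF1A, EPAS1 and CA9; of the wider list, the 3 largest per table are named, and other names were chosen after their values were seen. Alternatives were other scalings, no filter, DESeq2 1.42.0, fits of only the groups compared, the replicate number as a block, each library left out and genes without same-strand overlap.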

Additional observations from a re-analysis of the deposited data

Results flagged for a closer look

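Both guides target PURPL and both overexpression groups carry more of it, yet 12 differences within these pairs passed the test of that difference (edgeR's quasi-likelihood test, adjusted over all genes). Between the guides, 6 of 34 genes differed (17.6%, against 9.25% of all genes). sgRNA-PURPL#2 was lower than sgRNA-PURPL#1 in HK2 (-0.28 ± 0.0648 on the log2 scale, SE, adjusted p = 0.0034) and NDRG1 (-0.53 ± 0.0824, adjusted p = 3.02e-05). It was higher in PFKP (0.24 ± 0.0689, adjusted p = 0.0227), LDHA (0.23 ± 0.0557, adjusted p = 0.00675), EPAS1 (0.29 ± 0.0556, adjusted p = 0.000508) and PLOD2 (0.46 ± 0.0595, adjusted p = 1.76e-06). PURPL itself was 0.30 ± 0.119 higher with sgRNA-PURPL#2 than with sgRNA-PURPL#1, which did not pass (adjusted p = 0.128). Its part in these differences was not tested.

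Between the overexpression groups, 6 of 35 genes differed (17.1%, against 12.4% of all genes). PURPL#2-OE was higher than PURPL#1-OE in SLC2A1 (0.27 ± 0.0568, adjusted p = 0.00124), PFKFB3 (0.67 ± 0.0785, adjusted p = 2.76e-07), ADM (0.17 ± 0.0526, adjusted p = 0.0317), NDRG1 (0.32 ± 0.066, adjusted p = 0.00111) and P4HA1 (0.17 ± 0.0509, adjusted p = 0.0277). It was lower in EPAS1 (-0.23 ± 0.0504, adjusted p = 0.00225) and in PURPL (-0.50 ± 0.0571, adjusted p = 1.81e-07). The calls for PFKP between the guides, and for ADM and P4HA1 between the overexpression groups, were each lost when 1 of several libraries was left out (adjusted p up to 0.123, 0.125 and 0.168).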

How the results depend on the processing

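No called value changed its sign in any alternative, and the scalings moved the median of all genes by less than 0.1 on the log2 scale. The count of genes higher with sgRNA-PURPL#1, 2 in the report, was 1 without a filter, with DESeq2, with only the groups compared and with the replicate block, and 0 to 2 when single libraries were left out. With sgRNA-PURPL#2, leaving out single libraries gave 8 to 15 genes lower, where 13 are reported. For sgRNA-PURPL#2 against sgRNA-PURPL#1 the 4 genes higher became 9 with only those groups in the fit and 3 to 7 with libraries left out, and for PURPL#2-OE against PURPL#1-OE the 5 genes higher became 8 and 3 to 9; the cause was not tested. Restricting to genes with no same-strand overlap leaves fewer genes to count: with sgRNA-PURPL#1 10 lower, with sgRNA-PURPL#2 7 lower, in PURPL#1-OE 9 lower and 3 higher, in PURPL#2-OE 5 lower and 3 higher, between the guides 1 lower and 2 higher, between the overexpression groups 1 higher, and in the joint fit 6 lower and 3 higher. Same-numbered libraries of the knockdown table did not deviate together (correlations of -0.0888 to 0.0386 over 9 pairs). The 18 pairs with different numbers had -0.0835 to 0.114. Such correlations cannot exclude a culture or day shared by number, and the labels do not say what the numbers mark. With the replicate block, 16 genes were lower with sgRNA-PURPL#1 and 11 with sgRNA-PURPL#2. The overexpression table could not be given a block, since 5 of its columns have no number. For CA9, a change was not detectable at 0 to 3 counts per library.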
